A study of Mus musculus with 2 samples.

Results

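Regions recovered with antibodies to Etv4 and Etv5 were examined at 10 genes that themselves encode transcription factors of the ETS family. These are the PEA3 group (Etv1, Etv4 and Etv5) and Ets1, Ets2, Etv6, Elk3, Elk4, Erf and Gabpa, which are broadly expressed. A region was taken when it lay inside one of these genes or within 50 kb of it (mm10, GENCODE annotation), and 51 of 21933 regions met this rule. They comprised 28 of 13636 regions of the Etv4 list and 23 of 8297 regions of the Etv5 list. The question was whether Etv4 and Etv5 occupied sites at their own genes, at each other's genes and at those of related factors.

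Both lists came from EpRas cells, a line of mouse mammary gland epithelial cells (EpH4) transformed with oncogenic H-Ras. In both libraries the cells had received TGF-β3 at 1 ng/ml, 1.5 h before fixation, in medium with 4% serum. ChIP-seq, in which DNA fragments crosslinked to a protein are recovered with an antibody and sequenced, was done with a rabbit polyclonal antibody to Etv4 in 1 library and a mouse monoclonal antibody to Etv5 in the other. There was thus no replicate and no library of untreated cells, no input library was used for calling regions, and sequencing depth is unknown, so no difference between the lists was tested. Shares are given with exact (Clopper-Pearson) 95% intervals, which cover counting error only and treat neighbouring regions as independent. In what follows, an Etv4 region is one recovered with the Etv4 antibody, wherever it lies, and a shared region overlaps a region of the other list by at least 1 bp.

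ETS factors recognise DNA with a GGAA core. Transcription of the PEA3 group genes rises when Ras and ERK signalling is active, in part because ERK relieves their repression by Capicua (Cic), a protein that binds short sites such as TGAATGAA and TGAATGGA in their promoters. Ets1 and Ets2 are activators that ERK phosphorylates, Elk3 and Elk4 are ternary complex factors that bind with serum response factor, and Etv6 and Erf are repressors, of which Erf leaves the nucleus when ERK phosphorylates it. Gabpa is the DNA-binding subunit of a factor that acts at promoters of many housekeeping genes. AP-1 (Fos and Jun proteins) and RUNX factors often bind next to ETS factors.

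Sequences that carry the main results are shown 5′ to 3′ from the mm10 assembly, with pattern matches in capitals. The patterns, searched on both strands, were the ETS pattern (CAGGAAGT or CCGGAAGT), the AP-1 pattern (TGACTCA, whose reverse complement is TGAGTCA), the RUNX pattern (TGTGGTT or TGTGGTC) and the Capicua pattern (TGAATGAA, TGAATGGA, TCAATGAA or TCAATGGA). A match describes the letters of a stretch of DNA and does not show that a factor sat on it. The first sequences are from the PEA3 group genes: the Etv5 region that ends just upstream of Etv1, the Etv5 region inside the Etv5 gene, and the stretches upstream of the Etv4 and Etv5 gene starts, where no region was listed.
Etv1 start, Etv5 region, chr12:38778558-38778857, plus strand: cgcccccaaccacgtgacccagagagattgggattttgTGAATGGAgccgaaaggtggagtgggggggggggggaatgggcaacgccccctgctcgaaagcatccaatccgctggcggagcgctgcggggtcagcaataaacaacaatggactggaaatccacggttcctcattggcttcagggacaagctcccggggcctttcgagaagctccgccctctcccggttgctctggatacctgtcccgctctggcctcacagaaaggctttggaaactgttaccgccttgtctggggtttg
Etv5 intron, Etv5 region, chr16:22428989-22429109, plus strand: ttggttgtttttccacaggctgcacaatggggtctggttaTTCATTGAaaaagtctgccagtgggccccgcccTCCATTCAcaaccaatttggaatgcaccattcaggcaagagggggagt
Etv4 upstream, no region, chr11:101785452-101785571, minus strand: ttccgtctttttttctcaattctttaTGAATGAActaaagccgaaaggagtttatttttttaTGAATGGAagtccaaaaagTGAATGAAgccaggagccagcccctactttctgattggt
Etv5 upstream, no region, chr16:22439901-22439986, minus strand: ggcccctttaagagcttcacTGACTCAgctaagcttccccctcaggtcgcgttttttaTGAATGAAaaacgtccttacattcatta
The capitals in these mark the Capicua pattern, except TGACTCA, the AP-1 pattern, upstream of Etv5.

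The next sequences are the members' places with the ETS pattern in an Etv4 region, given in 30 bases where 100 bases would run into an exon. The 30 bases at the start of Gabpa, where no region was listed, are shown for comparison. Of the 30-base stretches, the one at Dhx8 site 2 itself overlaps an exon of Dhx8, and the one at Gabpa an exon of the neighbouring gene Atp5j.
Dhx8 start, site 1, chr11:101732881-101732910, plus strand: cgtctgtgggaACTTCCTGccagatctcgc
Dhx8 start, site 2, chr11:101732964-101732993, plus strand: cgagcgccgacCCGGAAGTggaagctgtgg
Ets1 intron, chr9:32749646-32749745, plus strand: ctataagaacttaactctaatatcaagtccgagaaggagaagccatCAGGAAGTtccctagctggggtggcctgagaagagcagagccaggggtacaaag
Etv6 intron, chr6:134090387-134090486, plus strand: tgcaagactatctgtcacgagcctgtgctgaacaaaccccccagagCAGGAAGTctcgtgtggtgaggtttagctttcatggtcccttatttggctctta
Elk3 intron, chr10:93306029-93306128, plus strand: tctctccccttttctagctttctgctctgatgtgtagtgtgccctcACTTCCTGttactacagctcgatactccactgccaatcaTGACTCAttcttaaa
Elk4 start, chr1:132007506-132007605, plus strand: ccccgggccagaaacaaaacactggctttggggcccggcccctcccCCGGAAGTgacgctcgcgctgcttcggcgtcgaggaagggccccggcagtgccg
Gabpa start, no region, chr16:84834847-84834876, minus strand: cggagccagggCCGGAAGTagaacggtggc
The capitals mark the ETS pattern on either strand, and in the Elk3 sequence also the AP-1 pattern TGACTCA further on.

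The last sequences are from shared regions and hold the AP-1 pattern. The Ets1 and Elk3 sequences belong to the member regions with the earliest place in the Etv4 and the Etv5 list, respectively, and the Cic sequence is from the region that the lists share upstream of Erf.
Ets1 internal start, chr9:32695538-32695837, plus strand: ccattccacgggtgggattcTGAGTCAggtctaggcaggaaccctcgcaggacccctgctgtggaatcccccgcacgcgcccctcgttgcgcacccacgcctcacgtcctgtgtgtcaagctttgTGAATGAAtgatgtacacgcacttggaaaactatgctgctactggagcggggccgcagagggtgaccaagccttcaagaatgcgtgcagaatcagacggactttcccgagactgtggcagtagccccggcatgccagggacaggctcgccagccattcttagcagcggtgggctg
Elk3 upstream, chr10:93343628-93343778, plus strand: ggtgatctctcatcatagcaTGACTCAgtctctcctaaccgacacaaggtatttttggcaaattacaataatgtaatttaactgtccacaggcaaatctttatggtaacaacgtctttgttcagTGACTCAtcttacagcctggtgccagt
Cic intron, upstream of Erf, chr7:25280461-25280756, plus strand: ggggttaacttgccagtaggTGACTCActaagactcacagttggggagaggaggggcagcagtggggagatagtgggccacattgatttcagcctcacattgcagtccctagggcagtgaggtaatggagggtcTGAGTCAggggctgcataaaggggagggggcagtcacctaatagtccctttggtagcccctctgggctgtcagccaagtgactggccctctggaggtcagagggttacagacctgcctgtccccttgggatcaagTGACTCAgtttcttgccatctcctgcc
The capitals mark the AP-1 pattern and, in the Ets1 sequence, also the Capicua pattern TGAATGAA.

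The 10 genes differed widely in the number of regions. Ets1 had 11 Etv4 and 8 Etv5 regions, Elk3 had 7 and 3, and Erf had 5 and 5. Etv1 and the Etv4 gene each had 1 region of each list, Ets2 and Etv6 had 1 Etv4 and 2 Etv5 regions, the Etv5 gene had 1 Etv5 region, Elk4 had 1 Etv4 region, and Gabpa had none. Ets1, Elk3 and Erf therefore held 23 of the 28 Etv4 regions and 16 of the 23 Etv5 regions, and the PEA3 group held 2 and 3. At least 1 Etv4 region was found at 8 of 10 genes and at least 1 Etv5 region also at 8 of 10, where 53.8 and 43.0% of all 21755 protein-coding genes had one by the same rule. Regions of both lists were present at 7 of 10 genes (36.7% of all genes), and 1 of 10 had neither (39.9%).

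**Figure D1:**
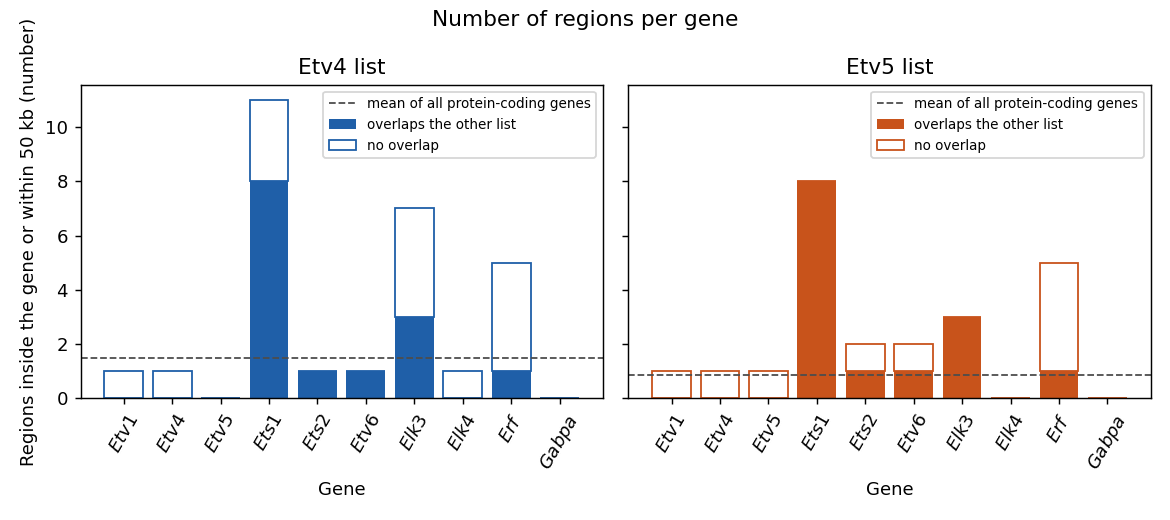
Number of regions inside each member gene or within 50 kb (vertical axis, count) for the Etv4 and Etv5 lists, 1 library each. Ets1 has 11 and 8 regions, Elk3 7 and 3, Erf 5 and 5, and every other gene at most 2 per list.

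The bar plot of regions per gene shows these counts without regard to gene length, which also varied. The median member spans 43.6 kb and the median protein-coding gene 17.4 kb, so the stretch searched was longer for the members. Per 100 kb of searched sequence, the members had a median of 0.820 Etv4 and 0.748 Etv5 regions, compared with 0.542 and 0 for all genes. Ets1 had 4.96 Etv4 and 3.61 Etv5 regions per 100 kb, densities reached by 4.51 and 2.68% of all genes. Erf had 4.62 of each list per 100 kb, reached by 5.66 and 1.26% of all genes, and Elk3 had 4.28 and 1.83, reached by 6.50 and 10.9%. In each list, only 1 of the 5 regions counted for Erf lay inside it, and 3 lay in the neighbouring gene Cic. At least 5 regions of both lists were found at Ets1 and Erf, and at 2.23% of all genes. Etv6, which at 234.5 kb is the longest member, had 0.299 Etv4 and 0.598 Etv5 regions per 100 kb. The PEA3 genes ranged from 0 to 0.865 for Etv4 regions and from 0.523 to 0.865 for Etv5 regions.

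Regions inside a gene were found at 6 of 10 members for each list (23.2% of all genes for Etv4 and 14.8% for Etv5). These shares are not corrected for gene length, and the median member is longer (43.6 kb) than the median protein-coding gene (17.4 kb). Of the 28 Etv4 regions, 18 lay inside the member, 8 upstream and 2 downstream, and of the 23 Etv5 regions 13 lay inside, 8 upstream and 2 downstream. Midpoints fell in introns of annotated genes for 22 Etv4 and 17 Etv5 regions, in exons for 2 and 1, and between genes for 4 and 5. The nearest start of a protein-coding gene was that of the member for 23 of 28 Etv4 and 19 of 23 Etv5 regions. A region within 2 kb of any annotated transcript start of the member was present for 3 genes in the Etv4 list (Ets1, Elk4 and Erf; 18.5% of all genes) and for 3 in the Etv5 list (Etv1, Ets1 and Ets2; 11.0%). No member region consisted mostly of sequence with further copies in the genome, the highest multicopy share being 11.0%, in an Elk3 region.

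**Figure D2:**
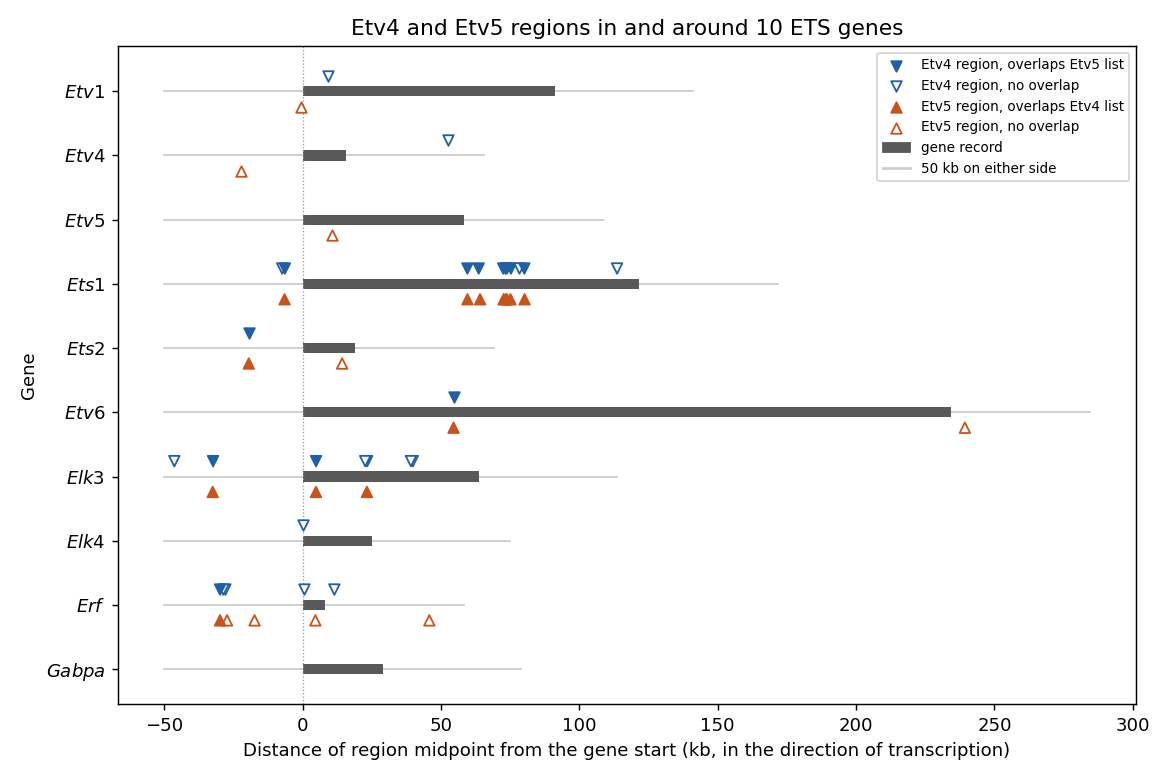
Positions of the 28 Etv4 and 23 Etv5 regions along the 10 member genes with 50 kb on either side, as distance from the gene start in kb in the direction of transcription, with filled marks for regions that overlap the other list. Filled marks gather in Ets1 and Elk3, and the PEA3 genes carry open marks only.

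The map of regions along the genes shows where the lists coincided. Of the 28 Etv4 regions, 14 were shared (50.0%, interval 30.6 to 69.4%; whole list 37.8%), and of the 23 Etv5 regions also 14 (60.9%, interval 38.5 to 80.3%; whole list 63.2%). Both intervals contain the share of the whole list. When an overlap of 50% of both regions was required, 9 regions of each list were shared. Shared Etv4 regions were found at 5 of 10 members (29.8% of all genes), which were Ets1 with 8, Elk3 with 3, and Ets2, Etv6 and Erf with 1 each, and shared Etv5 regions at the same 5 (29.7%). At the PEA3 group, 0 of 2 Etv4 and 0 of 3 Etv5 regions were shared, and with so few regions a difference from the other members was not detectable.

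In the PEA3 group, an antibody's region inside the gene of its own target, here called auto-binding, was listed only at the Etv5 gene. By comparison, 14.8% of all protein-coding genes had an Etv5 region inside, and 43.0% had one inside or within 50 kb. The Etv5 region in the Etv5 gene (chromosome 16, 22428848 to 22429208, 361 bp) lay in intron 5 of a 13-exon transcript, 10.7 kb inside the gene (chromosome 16, 22381309 to 22439719, minus strand). Its number in the Etv5 list was 4322, which puts it at 52.1% of the list. It was thus not in the first 50% of the list, and it was shorter than the list median of 532 bp. The region numbers run from 1 to the length of a list by a criterion that is not stated, so a percentage here gives only the place in the list. The Capicua pattern occurred at 2 places in the region and the ETS pattern at none. No Etv4 region was listed within 50 kb of the Etv5 gene, the nearest being 173.4 kb from its start.

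The Etv4 gene (chromosome 11, 101769742 to 101785371, minus strand) had 1 region of each list, neither near its start. By the same rule, 53.8% of all genes had at least 1 Etv4 region and 43.0% at least 1 Etv5 region. The Etv5 region (101807330 to 101807688) lay between genes, 22.1 kb upstream, at 90.5% of its list, and held 1 Capicua and 1 RUNX pattern. The Etv4 region (101732692 to 101733338, at 38.7% of its list) lay 36.4 kb beyond the 3′ end of the gene and covered the start of the neighbouring gene Dhx8, which encodes an RNA helicase of the splicing machinery. It holds the 2 ETS sites shown above. The Etv4 region assigned to the Etv4 gene is therefore a region at the promoter of another gene, and its assignment rests on the 50 kb rule.

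Etv1 (chromosome 12, 38779380 to 38870484, plus strand) carried the region closest to the start of a PEA3 group gene. This Etv5 region (38778558 to 38779070, 513 bp, at 37.8% of its list, GC content 59.3%) ended 310 bp upstream of the start, a distance within which 6.49% of all genes had an Etv5 region. It contains the Capicua pattern TGAATGGA, 780 bp upstream of the start, and no ETS, AP-1 or RUNX pattern in the 500 bp around its midpoint. The Etv4 region of Etv1 (38788413 to 38788950, at 70.7% of its list) lay 9.30 kb inside the gene, in intron 4 of a 13-exon transcript, with 1 AP-1 and 1 Capicua pattern. The regions of the 2 antibodies at Etv1 thus lay on different sides of the gene start and did not overlap.

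The letters of the promoters were searched for the Capicua pattern, since Capicua is a known repressor of the PEA3 genes. Within 1 kb of the gene start, it occurred at Etv1 (1 place), the Etv4 gene (5 places) and the Etv5 gene (2 places) and at none of the other 7 members, and 25.6% of all protein-coding genes had it. This holds for the starts of the gene records: at Ets1, whose record starts with a non-coding transcript, a TGAATGAA at 32695663 lies within 1 kb of the protein-coding start at 32696022, in the shared region printed above. At least 5 places were found at 73 genes, or 0.336%. At the Etv4 gene, 3 of the 5 places lay 116, 134 and 170 bp upstream of the start, as printed above, and the other 2 within 14 bp of it. At the Etv5 gene, the places lay 206 bp upstream and 926 bp downstream, and an AP-1 pattern lay 244 bp upstream. These promoters carried no region of either list, since the nearest region of any kind was 22.0 kb from the Etv4 gene start and 10.5 kb from the Etv5 gene start. Among the regions themselves, a search added after the data had been seen found the Capicua pattern in the 500 bp around the midpoint of 4 of the 5 PEA3 regions. Over all members it was found in 2 of 28 Etv4 regions (7.14%, interval 0.877 to 23.5%; whole list 7.87%) and in 4 of 23 Etv5 regions (17.4%, interval 4.95 to 38.8%; whole list 8.22%), and in 11.4% of random genomic windows of that length.

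**Figure D3:**
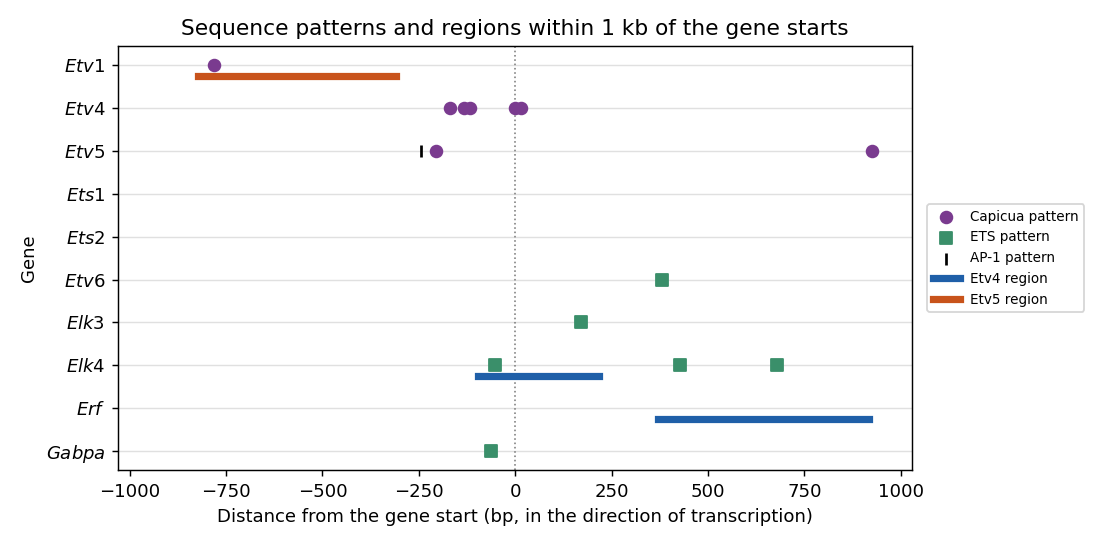
Places with the Capicua, ETS and AP-1 patterns within 1 kb of the gene start of each member, as distance from the start in bp in the direction of transcription, with bars for Etv4 and Etv5 regions. From these gene record starts, Capicua places appear at Etv1, Etv4 and Etv5, with 5 at Etv4 (the place near the internal protein-coding start of Ets1 is not drawn), while ETS places appear at Etv6, Elk3, Elk4 and Gabpa.

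The plot of patterns around the gene starts also gives the ETS pattern, a search that was likewise added after the data had been seen. It occurred within 1 kb of the start of 4 of 10 members (21.5% of all genes), with 3 places at Elk4 and 1 each at Etv6, Elk3 and Gabpa. For Ets1 the plotted start is that of the gene record, which belongs to a non-coding transcript with a retained intron.

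Ets1 (chromosome 9, 32636221 to 32757820, plus strand), the founding ETS factor, had more regions than any other member in both lists, 11 and 8, numbers reached by 0.841 and 0.584% of all genes. When the Etv4 list was cut by region number to the 8297 regions of the Etv5 list, Ets1 kept 4 Etv4 regions and Elk3 kept 5, so the first place of Ets1 for Etv4 and its excess of Etv4 over Etv5 regions depend on the longer list. Of the regions in the full lists, 8 Etv4 and 7 Etv5 regions lay in one stretch of 21.4 kb (32695315 to 32716697), which begins at an internal, protein-coding start of the gene at 32696022. The first regions of this stretch covered that start: the Etv4 region (32695315 to 32696174, number 1050, at 7.70% of its list) and the Etv5 region (32695322 to 32696278, number 1466, at 17.7%) overlapped by 853 bp, or 99.2% of the former and 89.1% of the latter, with midpoints 56 bp apart. No other member region had an earlier place in the Etv4 list. The sequence beneath, printed above, holds 1 AP-1 and 1 Capicua pattern and no ETS pattern.

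**Figure D4:**
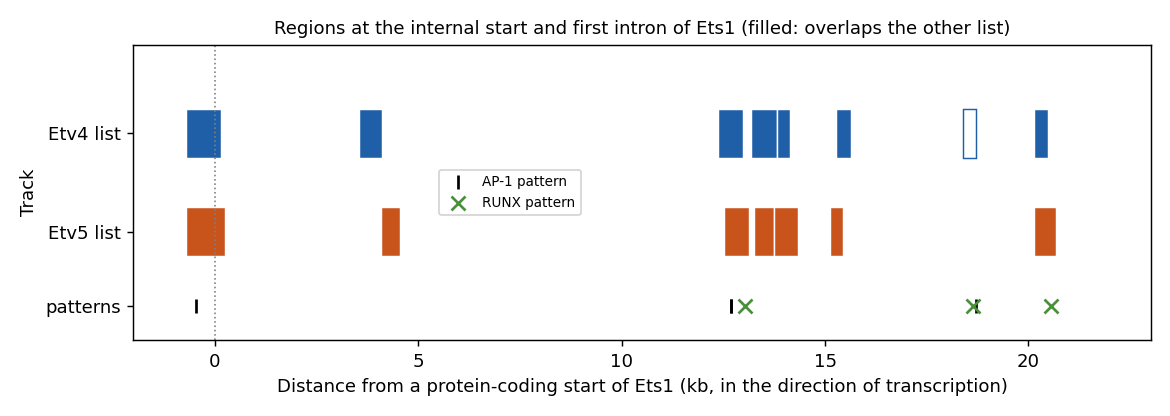
Etv4 and Etv5 regions along Ets1 from its internal protein-coding start (0 kb) into the gene, in kb in the direction of transcription, with filled bars for shared regions and marks for AP-1 and RUNX patterns. In these 21.4 kb, 7 of 8 Etv4 regions overlap an Etv5 region.

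The map of the Ets1 stretch shows the regions further in. Regions of both lists met again downstream of that start, where an Etv4 region (32699561 to 32700126) and an Etv5 region (32700107 to 32700570) had only 20 bp in common. Further on, 3 Etv4 regions (32708400 to 32708999, 32709192 to 32709836 and 32709843 to 32710155) ran side by side with 3 Etv5 regions (32708544 to 32709141, 32709270 to 32709767 and 32709770 to 32710363). The first of these pairs shared 456 bp and had early places in both lists, 20.5 and 18.7%, with 2 AP-1 patterns in common. The middle pair shared 498 bp, with midpoints 4 bp apart. In the last of these pairs, which shared 313 bp, the Etv4 region lay wholly inside the Etv5 region and had the latest Etv4 place of the stretch, 96.2%. The middle Etv4 region also reached the last of these Etv5 regions, by 67 bp. The remaining shared pairs of the stretch overlapped by 182 bp and 347 bp and had late places in the Etv4 list, 84.3 and 77.2%. One Etv4 region (32714412 to 32714730) lacked an Etv5 counterpart.

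Outside the stretch, a shared pair lay upstream of the Ets1 gene record, with the Etv4 region (32629635 to 32629951) wholly inside the Etv5 region (32629389 to 32629986), and an Etv4 region not shared (32628596 to 32629082) lay next to it. The last Etv4 region (32749627 to 32750046, at 62.5% of its list) lay in intron 6 towards the 3′ end and was the one Ets1 region with the ETS pattern, with an AP-1 and 2 RUNX patterns in the 500 bp around its midpoint. All 8 Etv5 regions of Ets1 were shared (interval 63.1 to 100%; whole list 63.2%), and 8 of the 11 Etv4 regions were (72.7%, interval 39.0 to 94.0%; whole list 37.8%). The Etv5 interval contains the share of the whole list, and the Etv4 interval begins just above it. Since these intervals treat neighbouring regions as independent and most Ets1 regions lay close together in the stretch, they cannot decide whether sharing was unusual at Ets1.

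Ets2 (chromosome 16, 95702075 to 95721051, plus strand), the close relative of Ets1, had a single shared pair between genes, 19.5 kb upstream of its start by the midpoint of the Etv4 region. The Etv5 region (95682353 to 95682884, at 65.2% of its list) lay wholly inside the Etv4 region (95682163 to 95682942, at 19.9%), with 532 bp in common and 2 AP-1 patterns in it. A further Etv5 region (95716169 to 95716508, at 56.0%) lay in intron 8 of a 10-exon transcript, 0.484 kb from the start of a transcript with a retained intron. This is the region that counts Ets2 among the genes with an Etv5 region near a transcript start, and it lay 14.1 kb from the start of the gene.

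Among the ternary complex factors, Elk3 (also called Net; chromosome 10, 93247414 to 93311135, minus strand) had 7 Etv4 and 3 Etv5 regions, and each Etv5 region lay wholly inside an Etv4 region. In intron 1, 4.84 kb from the gene start, the Etv4 region (93305757 to 93306831, number 1134, at 8.32% of its list) contained the Etv5 region (93306131 to 93306520, at 75.4%). The Etv4 region holds an ETS and an AP-1 pattern close together, as printed above, and both lie outside the Etv5 region.

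Upstream of Elk3, 32.4 kb from its start and inside the long non-coding RNA gene Gm17745, the Etv4 region (93342803 to 93344215, at 14.7%) contained the Etv5 region (93343235 to 93344040, number 937, at 11.3%). No other member region had an earlier place in the Etv5 list, and the 806 bp in common hold 2 AP-1 patterns. The remaining shared pair (93287470 to 93288181 and 93287733 to 93288064, 332 bp in common) lay in intron 1 with 1 AP-1 pattern. The 4 Etv4 regions of Elk3 that were not shared lay in intron 2 (93271125 to 93271532 and 93271618 to 93272398), in intron 1 (93288383 to 93288691) and upstream (93357253 to 93357760). All 3 Etv5 regions and 6 of the 7 Etv4 regions of Elk3 had the AP-1 pattern in the 500 bp around the midpoint (35.9 and 37.5% of the whole lists), and since the Etv5 regions lie inside Etv4 regions, their sites are the same ones. For the Etv5 region at 93306131 to 93306520 and the Etv4 region at 93288383 to 93288691, the site lay outside the region itself. At Ets1 and Ets2 together, 11 of 22 regions of both lists had the pattern in that window.

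Elk4 (also called Sap1; chromosome 1, 132007607 to 132032612, plus strand) had 1 Etv4 region, which covered the gene start (132007512 to 132007824, GC content 72.5%). It is short, at 313 bp, and late in its list, at 96.3%. The CCGGAAGT in it, 52 bp upstream of the start, makes Elk4 the one member with an ETS pattern inside a region at its own promoter. The nearest Etv5 region was 97.2 kb away.

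Among the repressors, Etv6 (also called Tel; chromosome 6, 134035700 to 134270158, plus strand) had a shared pair in intron 2 of a 9-exon transcript, 54.6 kb from its start. The Etv5 region (134090046 to 134090410, at 90.1%) lay wholly inside the Etv4 region (134089960 to 134090613, at 31.0%), and 2 RUNX patterns lay in both. The ETS pattern of the Etv4 region lay just beyond the end of the Etv5 region. A further Etv5 region (134274848 to 134275181, at 92.7%) lay 4.69 kb beyond the 3′ end of the gene.

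Erf (chromosome 7, 25242561 to 25250761, minus strand) had 5 regions of each list, but most of them belonged to its neighbours. An Etv4 region (25249844 to 25250390, at 46.5% of its list) lay in intron 1 of a 4-exon transcript, its midpoint 0.644 kb from the start, and an Etv5 region (25245998 to 25246316, at 94.9%) had its midpoint in exon 2. These 2 were the only ones inside Erf. In each list, 3 of the 5 regions lay in Cic (chromosome 7, 25267704 to 25294159, plus strand), which encodes Capicua. An Etv5 region (25267830 to 25268452, number 2683, at 32.3%) and an Etv4 region (25278347 to 25279029, at 21.5%) each covered an annotated start of a Cic transcript. The shared pair of this locus lay in Cic as well: the Etv5 region (25280418 to 25280804, at 59.7%) lay inside the Etv4 region (25280183 to 25281025, at 18.6%), and the 387 bp in common hold the 3 AP-1 patterns printed above. Another Etv4 region (25279254 to 25279575) and another Etv5 region (25277913 to 25278277) in Cic were not shared. The remaining regions lay on the other side of Erf, an Etv4 region (25239138 to 25239464) 1.45 kb from the start of Gsk3a and an Etv5 region (25204704 to 25205263) in Dedd2. The nearest protein-coding start was that of Erf for 1 of 5 regions in each list.

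Gabpa (chromosome 16, 84834925 to 84863779, plus strand) had no region of either list within 50 kb. The nearest Etv4 region was 302.4 kb and the nearest Etv5 region 298.5 kb from its start, and 83.7 and 78.1% of all genes had a region at least as near. The promoter holds the ETS pattern CCGGAAGT, 64 bp upstream of the start and on the minus strand, printed above. The printed stretch also overlaps an exon of the neighbouring gene Atp5j. The same pattern lies in the listed region at the Elk4 start.

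**Figure D5:**
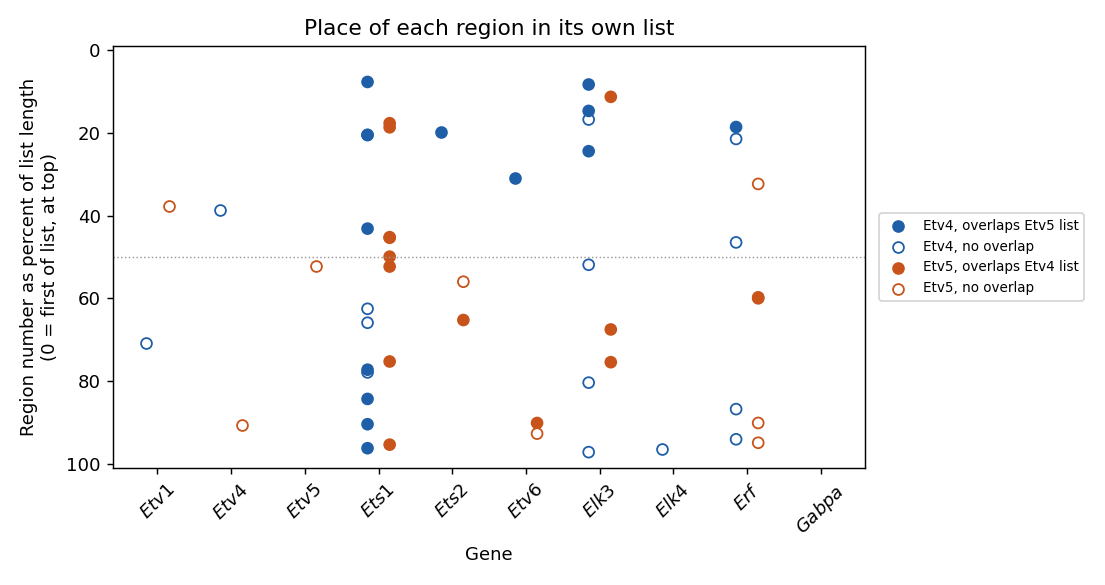
Place of each member region in its list (vertical axis, region number as percent of the list length, 0 at the first region) by member gene, for the Etv4 and the Etv5 list, with filled marks for shared regions. Places run from 7.70 to 97.1% for Etv4 and from 11.3 to 95.3% for Etv5, with the earliest and the latest in each list at Ets1 or Elk3.

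The plot of places in the lists sets the 51 regions side by side. The median place was 49.2% for Etv4 and 59.7% for Etv5, and 14 of 28 Etv4 regions and 8 of 23 Etv5 regions fell in the first 50% of their lists. Their median lengths were 542.5 bp for Etv4 and 464 bp for Etv5 beside 589 and 532 bp for the whole lists. Member regions were thus spread over the lists. Ets1 and Elk3 held late entries as well as the earliest, with an Elk3 Etv4 region at 97.1% and an Ets1 Etv5 region at 95.3%.

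Patterns in the 500 bp around the midpoints were then compared with the whole lists. Of the 28 Etv4 regions, 5 had the ETS pattern (17.9%, interval 6.06 to 36.9%), compared with 10.2% of the whole list and 3.39% of random genomic windows. In the Etv5 list it was found around 2 of 23 regions (8.70%, interval 1.07 to 28.0%; whole list 7.97%), at Etv6 and Elk3, and in both cases the site lay outside the region itself. The AP-1 pattern was more frequent, in 15 of 28 Etv4 regions (53.6%, interval 33.9 to 72.5%; whole list 37.5%) and 10 of 23 Etv5 regions (43.5%, interval 23.2 to 65.5%; whole list 35.9%), and in 7.43% of random windows. The RUNX pattern was found in 6 of 28 (21.4%, interval 8.30 to 41.0%; whole list 24.7%) and 5 of 23 (21.7%, interval 7.46 to 43.7%; whole list 23.9%), and in 17.1% of random windows. Every one of these intervals contains the share of the whole list, so a difference of the member regions from the lists was not detectable with this number of regions. The ETS pattern read backwards (TGAAGGAC or TGAAGGCC), a comparison sequence of the same composition, was found in 1 of 28 Etv4 regions (3.57%, interval 0.0904 to 18.3%; whole list 3.61%), in 3 of 23 Etv5 regions (13.0%, interval 2.78 to 33.6%; whole list 3.81%) and in 3.49% of random windows. Members and lists overlap in these comparisons, since the member regions are part of the lists, and the 2 antibodies' regions share sequence where they overlap.

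The remaining 16 ETS genes, which include factors of blood, endothelial and epithelial cells, were searched in the same way. At least 1 Etv4 region was found at 6 of 16 genes (53.8% of all genes) and at least 1 Etv5 region at 1 of 16 (43.0%), and 10 of 16 had neither (39.9%), so these counts lay on the low side of all genes. These 16 genes held 10 Etv4 regions and 1 Etv5 region. Spi1 had regions of both lists (3 and 1), with 1 of the Etv4 regions shared. An Etv4 region covered the gene start of Elf1, which was the only one of the 16 with a region within 2 kb of a transcript start (18.5% of all genes for Etv4 and 11.0% for Etv5). The median span of these genes was 25.3 kb, compared with 43.6 kb for the members, and members and remaining genes were not compared by a test.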

How the data were processed

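ChIP-seq had been done by the authors with antibodies to Etv4 and Etv5 in EpRas cells, 1 library each, amplified by 15 cycles of PCR and sequenced on an Ion Proton. Per the labels, reads were mapped to mm10 with Bowtie. Regions were called by the authors for each library with the one-sample mode of CisGenome (300 bp window, p threshold 0.1), which uses no input, so local differences in copy number or open chromatin were not removed. The deposited lists hold positions, a region number and a score. The deposited score is 1000 for every region and was not used. No counts were given, so the depth is unknown.

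Regions were assigned to genes of GENCODE M21 (protein-coding, 21755 genes on the autosomes and X) when inside or within 50 kb. A region can be assigned to several genes. A start region covered an annotated transcript start or had its nearest border within 2 kb of one. Distances to the nearest region were measured from the gene start to the region's border, distances beyond a gene's 3′ end from that end to the border, and other distances from the midpoint. Shared regions had at least 1 bp in common. Patterns were counted in 500 bp around the midpoint, and in 20000 random windows of that length. Shares of the whole lists in pattern comparisons leave out regions on chromosome Y and the mitochondrial genome (13589 Etv4 and 8268 Etv5 regions were used). A region was mostly multicopy when over 50% of its 36-base words had a further copy in the genome. All regions of the members are accounted for, and named genes are the members, the genes whose starts or bodies their regions touch, and those of the gene lists.

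The members, the gene lists and the patterns were chosen with earlier results of these data known. The search for Capicua patterns in regions, and for ETS and AP-1 patterns at gene starts, was added after seeing the data. Alternatives were regions inside the gene only, the longer and the first 50% of each list, equal lists, other distances, windows and patterns, and merging of regions within 300 bp. The functions were tested on simulated data with planted overlaps and sites. Tools were Python 3.11.15, numba 0.67.0, scipy 1.17.1, matplotlib 3.10.9, pandas 2.3.3 and numpy 2.4.6. No test was made, since each antibody had 1 library. RNA levels, protein sequences and accessibility of chromatin were not analysed here.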

Additional observations from a re-analysis of the deposited data

How the results depend on the processing

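Of 75 values under alternative settings, 53 stayed within wide limits (the 95% interval of a share, or 1.5 times a count) and 22 moved. Most of those that moved came from settings that remove regions by construction. The number of Etv4 regions at the members, 28, became 18 inside the genes only, 12 in the longer 50% of the list, 14 in the first 50% by number, and 15 when the list was cut to the length of the Etv5 list, by number or by length. The number of Etv5 regions, 23, became 13, 8 and 8 under the first 3 of these settings, and the median number per gene, 1.5, became 0 in the longer 50% and 0 in the first 50%. With equal lists the Etv5 count thus exceeded the Etv4 count. The shared part of the Etv4 regions, 50.0%, became 28.6% in the first 50% by number (4 of 14). With an overlap of 50% of both regions in place of 1 bp, 9 regions of each list were shared, and the parts fell to 32.1% for Etv4 and, from 60.9%, to 39.1% for Etv5, both within the intervals. The number of members with a region near a start, 5, became 3 with the start of the gene record only, 1 in the longer 50% and 3 in the first 50%. In a 200 bp window, the ETS pattern share became 3.57% for Etv4 and 0% for Etv5, and the AP-1 share became 25.0 and 21.7%, while the whole lists had 5.04 and 3.51% for ETS and 24.0 and 20.7% for AP-1. For Etv5 the ETS share was also 0% in the whole region and with CCGGAAGT alone, where the interval reaches 14.8%. With a shorter ETS pattern (AGGAAG and its variants with C first or A last), the shares became 89.3% for Etv4 and 82.6% for Etv5, beside 81.5 and 79.0% of the whole lists and 73.9% of random windows. No paired analysis was possible because no antibody had more than 1 library. The unknown depth limits what a missing region shows, as at Gabpa.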

Other observations

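Genes whose products act on the PEA3 group had regions in or around them as well. The list comprised Cic, Atxn1 and Atxn1l, whose products form a repressor complex, and Cop1 and Det1, parts of a ubiquitin ligase that degrades PEA3 proteins. Regions of both lists were found inside or within 50 kb of 4 of these 5 genes, with 36.7% of all protein-coding genes as background, and Det1 had neither. Atxn1 had 7 Etv4 and 3 Etv5 regions over a span of 415.3 kb, with 5 and 1 of them inside the gene. Cic had 5 and 4 regions, all of which are also counted at the neighbouring Erf, and 3 of each list lie inside Cic. Atxn1l had 3 regions of each list, of which 2 were shared, and Cop1 had 1 of each. None of the regions counted for Atxn1l or Cop1 lay inside these genes. Regions within 2 kb of a transcript start were found at 2 of 5 genes, Atxn1 and Cic, in both lists (18.5% of all genes for Etv4 and 11.0% for Etv5). The genes were chosen with earlier results of these data known, and no test was made.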
